A study of Mus musculus with 12 samples.

Results

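The 10 genes described here code for glycoproteins of the provisional matrix and for matricellular proteins of the mouse: fibronectin (Fn1), the tenascins C and XB (Tnc, Tnxb), periostin (Postn), SPARC and its relative SPARC-like 1 (Sparc, Sparcl1), thrombospondins 1 to 3 (Thbs1, Thbs2, Thbs3) and versican (Vcan). They were taken by gene symbol from a table of raw RNA-seq counts for 52550 Ensembl genes, each symbol matched 1 row, and all 10 were among the 17700 genes that passed the low-count filter. The libraries fall into 4 groups of 3, all from wild-type animals. In the M scaffold group, primary cells of the intestinal muscle layers had spent 28 days on an electrospun gelatin scaffold in M medium, the differentiation medium. No serum is named among its parts, which include the N2 and B27 supplements, N-acetylcysteine at 1 mM and 3 signalling agents. They are Noggin, an antagonist of BMP (100 ng/ml), R-spondin1, which strengthens Wnt signals (1 µg/ml), and Y27632, an inhibitor of ROCK (10 µM). The M plate group had the same medium and time on a well plate. The P plate group was kept for 28 days on a well plate in P medium, the proliferation medium, which is DMEM with 10% FBS. Strips of intestinal muscle, labelled as native tissue and positive control, were the fourth group. The sources used here give neither the age and strain of the animals nor whether animals were pooled. The strips were placed by their titles, although their labels repeat the time point and cell type entered for the cultures.

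Provisional matrix is the early, open matrix that cells lay down in wounds and in culture. Fibronectin fibres form its core and bind cells through integrins, and versican fills it with hyaluronan. Matricellular proteins sit in that matrix without bearing load, and they tune how cells attach, migrate and respond to growth factors. Most of them are known for high levels in development and repair and for low levels in resting tissue. In gut muscle the cells that can make them include smooth muscle cells, fibroblasts and cells of the vessel wall.

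Gene counts per library ran from 21396485 to 116643512. Levels are given as CPM, counts scaled to library size with TMM factors (0.893 to 1.15), and a count of 0 would have allowed 0.027 to 0.125 CPM (3 counts, counting error only). The 9 smooth muscle markers summed to 3750 to 11300 CPM in M scaffold, 3140 to 5520 CPM over M plate libraries, 5340 to 11000 CPM over P plate libraries and 35000 to 36700 CPM in strips, so the strips carried the markers of their muscle label. The cultures held transcripts of several other cell types. The 7 macrophage markers summed to 19900 CPM in P plate replicate 1, against 3610 and 2080 CPM in replicates 2 and 3, and the 6 mesothelium markers to 391 CPM there, against 3650 and 2920 CPM. The 8 endothelium markers summed to 231 CPM in M scaffold replicate 3, against 1600 and 1060 CPM in replicates 1 and 2. In M scaffold replicate 2 the smooth muscle markers summed to 3750 CPM, against 11300 and 9220 CPM in replicates 1 and 3. P plate replicate 1 and M scaffold replicates 2 and 3 thus stood apart in some of these markers. The 6 intestinal epithelium markers summed to 2.96 to 7.84 CPM over all cultures and to 60.4 to 358 CPM in strips. Exons of 5 of the 10 genes share bases with another gene, over 0.0246% to 6.59% of their length.

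A gene was called when edgeR's quasi-likelihood F test gave a Benjamini-Hochberg adjusted p under 0.05 over the 17700 genes. Between cultures and strips the 10 genes split in the same way in all 3 cultures. Thbs1, Fn1, Tnc, Thbs2 and Sparc were called higher in M scaffold, M plate and P plate than in strips, and Sparcl1, Tnxb and Thbs3 were called lower in each. Of the other two genes, Postn was called higher in M scaffold and Vcan in no comparison. In M scaffold against strips this made 6 higher and 3 lower of 10, in M plate 5 higher and 3 lower, and in P plate 5 higher and 3 lower. Over all genes tested 52.1% were called in M scaffold against strips, 54.9% in M plate and 63.1% in P plate, so a call was common there. The libraries of the compared groups did not overlap for 9, 8 and 9 of the 10 genes, against 65.2%, 73.2% and 67.8% of all genes tested. The median log2 fold change of the 10 was 0.97, 0.57 and 0.78, where the median over all genes was -0.02, -0.01 and -0.03. The 3 comparisons share the strips. Marker sums of other cell types moved with this split. The 8 fibroblast markers summed to 23800 to 33200 CPM in M scaffold, 19800 to 23100 in M plate, 11800 to 16600 in P plate and 5980 to 7280 in strips, with 5 of 8 called higher in each culture. In P plate 2 of the 8 were called lower, Dpt (0.581 CPM against 99.8 in strips, log2 -7.4) and Clec3b (0.104 against 21.6, -7.72). The macrophage markers summed to 1690 to 3800 CPM in M scaffold, 3630 to 4350 in M plate, 2080 to 19900 in P plate and 147 to 200 in strips, with 6, 7 and 7 of 7 called higher. Of the smooth muscle markers 7, 9 and 7 of 9 were called lower. Over all genes 24.5%, 26.5% and 30.5% were higher and 27.6%, 28.4% and 32.7% lower in M scaffold, M plate and P plate. The part of these cells in the values of the 10 genes was not tested. In bulk samples, fewer cells of a type and less RNA per cell cannot be told apart.

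**Figure D1:**
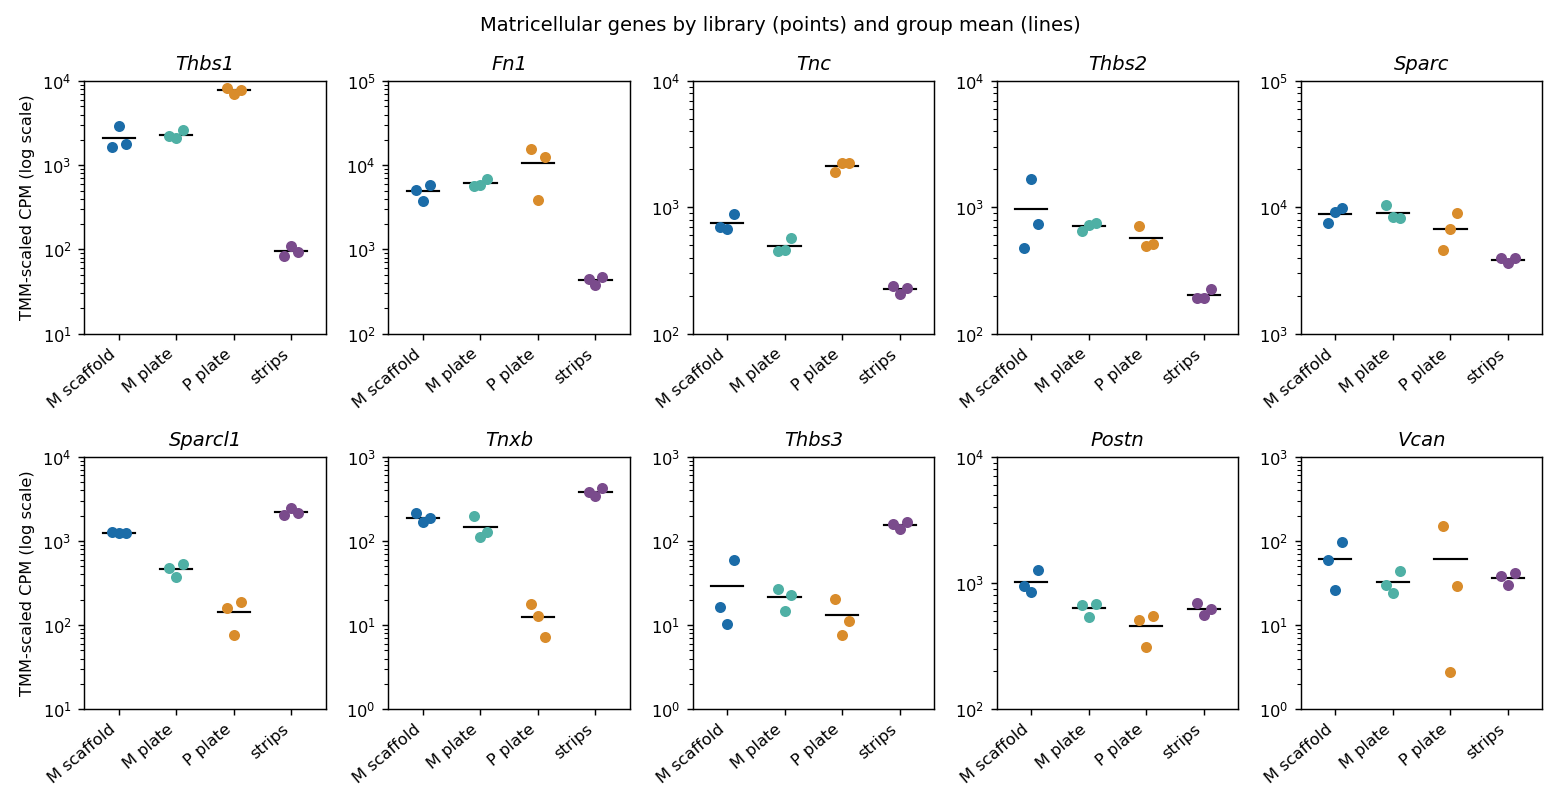
TMM-scaled CPM of the 10 genes on log axes, with 1 point per library and a line at the mean of the 3 libraries, for M scaffold, M plate, P plate and strips. Thbs1, Fn1, Tnc, Thbs2 and Sparc lie lowest in strips, Sparcl1, Tnxb and Thbs3 highest there, and Vcan runs from 2.77 to 151 CPM within P plate.

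**Figure D2:**
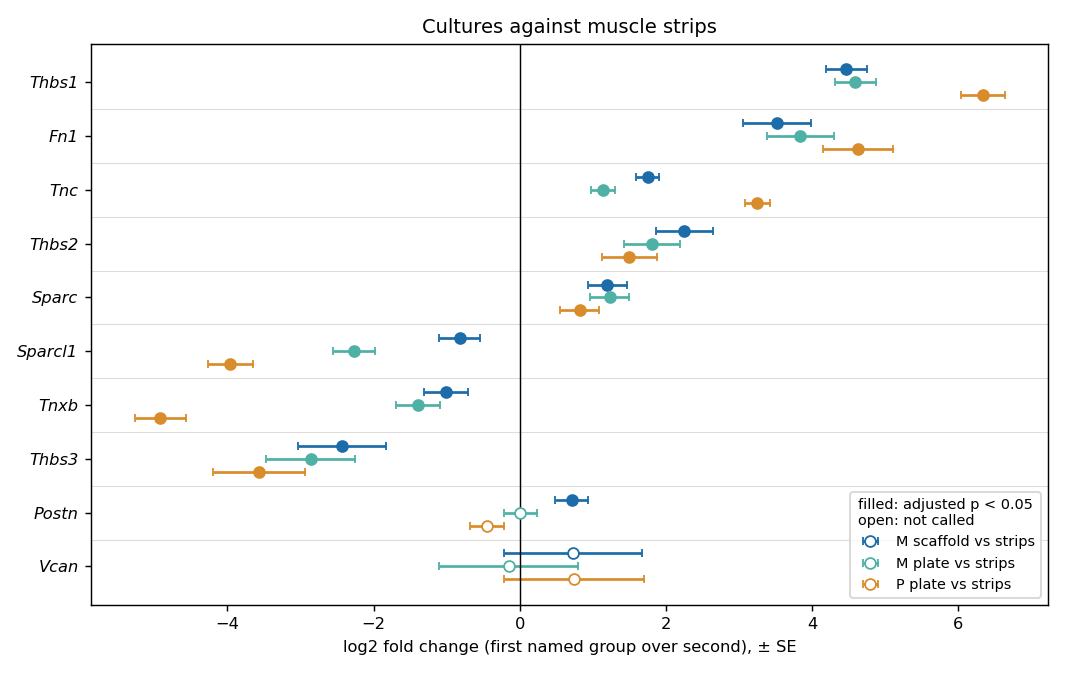
Log2 fold change of each gene in M scaffold, M plate and P plate over strips, with its SE, filled where the adjusted p was under 0.05. Values run from -4.92 for Tnxb to 6.34 for Thbs1, both in P plate against strips.

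Thrombospondin 1, which binds cells, collagen and the latent form of TGF-beta and is known as an inhibitor of vessel growth, had the largest difference from strips of the 10 genes. Thbs1 (ENSMUSG00000040152, GRCm38 chromosome 2, 118111876 to 118127133, plus strand) stood at 1640, 2940 and 1780 CPM in M scaffold, at 2210, 2120 and 2590 in M plate, at 8280, 7030 and 7850 in P plate, and at 83.8, 109 and 93 in strips. The 4 groups thus formed 3 levels, with P plate highest, both M medium groups overlapping in the middle and strips lowest. Against strips, Thbs1 was 22.2-fold higher in M scaffold (log2 4.47 ± 0.28 (SE), adjusted p = 8.16e-06), 24.2-fold higher in M plate (4.59 ± 0.28, adjusted p = 4.01e-06) and 80.9-fold higher in P plate (6.34 ± 0.30, adjusted p = 4.05e-07). Against P plate, it was lower in M scaffold at log2 -1.86 ± 0.25 (adjusted p = 0.000374) and in M plate at -1.74 ± 0.25 (adjusted p = 0.000691). Both of these calls were lost with the replicate number as a block within the 6 compared libraries (adjusted p = 0.0792 and 0.0555).

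Thbs2 and Thbs3 code for relatives of that protein. Thrombospondin 2 forms trimers like thrombospondin 1, while thrombospondin 3 belongs to the subgroup that forms pentamers. Thbs2 (ENSMUSG00000023885, chromosome 17, 14665500 to 14694235, minus strand) had 474, 1690 and 741 CPM in M scaffold, 647, 726 and 757 in M plate, 717, 493 and 516 in P plate, and 192, 190 and 226 in strips. The cultures overlapped each other and all lay above the strips. Thbs2 was 4.77-fold higher in M scaffold than in strips (adjusted p = 0.000912), 3.5-fold higher in M plate (adjusted p = 0.00251) and 2.84-fold higher in P plate (adjusted p = 0.00545). Replicate 2 of M scaffold was far above the other two, and without it M scaffold against strips was log2 1.57 in place of 2.25, still called (adjusted p = 0.000774). That library also had the highest Thbs1 of M scaffold and the low smooth muscle markers, whose part was not tested. Without it M scaffold against M plate was -0.20 in place of 0.45, neither called. Against P plate, M scaffold did not pass (0.75 ± 0.37, adjusted p = 0.169) but did without M scaffold replicate 1 (1.08, adjusted p = 0.0348).

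Thbs3 went the other way. Its values (ENSMUSG00000028047, chromosome 3, 89215180 to 89226837, plus strand) were 16.4, 10.4 and 59.8 CPM in M scaffold, 27, 14.7 and 23 in M plate, 20.6, 7.56 and 11.1 in P plate, and 161, 138 and 168 in strips. All 9 culture libraries lay below the strips, and the cultures overlapped each other. Thbs3 was 5.38-fold lower in M scaffold than in strips (log2 -2.43 ± 0.60, adjusted p = 0.00659), 7.24-fold lower in M plate (-2.86 ± 0.61, adjusted p = 0.00266) and 11.9-fold lower in P plate (-3.57 ± 0.63, adjusted p = 0.00064). Without M scaffold replicate 3, its highest culture library, the first of these was -3.54 (adjusted p = 0.000425). Its exons share 318 bases (6.59% of their length) with exons of Mtx1 on the opposite strand. The sources name no counting program or strand setting, so how reads from those bases were counted is not known.

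The tenascins split between both directions too. Tenascin C is an anti-adhesive protein of wounds and developing tissue, and tenascin X, the product of Tnxb, binds collagen fibrils in settled connective tissue. Tnc (ENSMUSG00000028364, chromosome 4, 63959785 to 64047015, minus strand) had 703, 670 and 885 CPM in M scaffold, 452, 456 and 573 in M plate, 1900, 2240 and 2250 in P plate, and 238, 205 and 230 in strips. No group overlapped another, and the order was P plate, M scaffold, M plate and strips. Against strips, Tnc was 3.36-fold higher in M scaffold (log2 1.75 ± 0.16, adjusted p = 3.69e-05), 2.2-fold higher in M plate (1.14 ± 0.16, adjusted p = 0.000241) and 9.5-fold higher in P plate (3.25 ± 0.17, adjusted p = 5.15e-07). Against P plate, M scaffold was 2.83-fold lower (log2 -1.50 ± 0.16, adjusted p = 9.92e-05).

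Tnxb (ENSMUSG00000033327, chromosome 17, 34670535 to 34719815, plus strand) had 212, 169 and 186 CPM in M scaffold, 200, 110 and 128 in M plate, 17.8, 12.8 and 7.23 in P plate, and 381, 341 and 420 in strips. Strips were highest, P plate lowest and both M medium groups overlapped in between. Tnxb was 2.02-fold lower in M scaffold than in strips (log2 -1.01 ± 0.30, adjusted p = 0.0159), 2.61-fold lower in M plate (-1.39 ± 0.30, adjusted p = 0.00292) and 30.2-fold lower in P plate (-4.92 ± 0.35, adjusted p = 1.98e-06). The first of these did not pass without M scaffold replicate 2 (adjusted p = 0.054). Against P plate, Tnxb was 15-fold higher in M scaffold (log2 3.90 ± 0.33, adjusted p = 2.8e-05) and 11.6-fold higher in M plate (3.53 ± 0.33, adjusted p = 6.72e-05).

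The promoters of 4 of these genes are shown because they pair relatives that differed from strips in opposite directions, Tnc with Tnxb and Thbs2 with Thbs3. Each line holds the 250 bases before the start of transcription in RefSeq (build GRCm38.p6), 5′ to 3′ on the strand of the gene, with matches to the searched motifs in capitals. The windows lie at chr4:64047016-64047265 (minus strand) for Tnc, chr17:34670285-34670534 (plus strand) for Tnxb, chr17:14694263-14694512 (minus strand) for Thbs2 and chr3:89214930-89215179 (plus strand) for Thbs3.
Tnc: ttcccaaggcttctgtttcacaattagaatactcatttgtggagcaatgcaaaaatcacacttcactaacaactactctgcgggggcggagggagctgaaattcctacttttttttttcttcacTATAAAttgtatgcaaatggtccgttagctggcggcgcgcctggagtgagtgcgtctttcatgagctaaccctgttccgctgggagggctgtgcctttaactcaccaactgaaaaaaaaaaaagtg
Tnxb: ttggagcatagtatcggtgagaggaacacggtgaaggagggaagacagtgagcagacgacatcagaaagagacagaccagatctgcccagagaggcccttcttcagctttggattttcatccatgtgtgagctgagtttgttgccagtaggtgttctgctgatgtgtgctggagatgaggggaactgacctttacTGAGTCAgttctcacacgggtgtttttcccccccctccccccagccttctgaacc
Thbs2: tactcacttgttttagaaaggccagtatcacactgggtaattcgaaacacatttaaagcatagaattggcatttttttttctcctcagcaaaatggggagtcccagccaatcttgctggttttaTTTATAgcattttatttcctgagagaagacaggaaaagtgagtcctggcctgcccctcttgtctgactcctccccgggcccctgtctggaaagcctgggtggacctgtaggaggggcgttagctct
Thbs3: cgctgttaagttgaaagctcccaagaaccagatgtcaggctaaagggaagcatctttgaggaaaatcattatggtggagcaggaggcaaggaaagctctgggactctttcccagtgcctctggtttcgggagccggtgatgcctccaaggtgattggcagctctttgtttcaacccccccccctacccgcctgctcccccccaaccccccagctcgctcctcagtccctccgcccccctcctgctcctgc

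Of the 10 genes, 7 had such a window in the RefSeq table, 9 windows in all, since Tnc and Postn have alternative starts. The search covered both strands for the AP-1 motif TGANTCA, the TEAD motif GGAATG, the TATA box TATAAA and the CArG box of serum response factor. A CArG box can hold TATAAA within it, but no window of these genes had more than 1 match. The Tnxb window held 1 match to the AP-1 motif, which begins 55 bases before the start, as 6.75% of all 32851 windows of that length do. The Tnc and Thbs2 windows each held 1 match to TATAAA, and 12.4% of all windows hold one. Both matches begin 126 bases before the start, on the forward strand in Tnc and on the reverse strand in Thbs2. The second Tnc window, not printed, held the same match as the first, 205 bases before its own start. One of the Postn windows, not printed, also held TATAAA, 26 bases before the start. No window of these genes held the TEAD motif or the CArG box, which 12.6% and 1.47% of all windows hold. The Thbs3 window held none of the 4 motifs. A match describes letters in a window and does not show that a factor binds there.

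SPARC, a collagen-binding protein that bone cells, fibroblasts and endothelial cells secrete, and SPARC-like 1, known as hevin and found in vessel walls and nervous tissue, were the most abundant of the 10 genes in strips per length. Sparc (ENSMUSG00000018593, chromosome 11, 55394500 to 55423183, minus strand) had 7480, 9150 and 9900 CPM in M scaffold, 10500, 8320 and 8210 in M plate, 4630, 6700 and 8960 in P plate, and 3950, 3610 and 3960 in strips. The cultures overlapped each other, and the strips lay below them. Sparc was 2.3-fold higher in M scaffold than in strips (adjusted p = 0.00437), 2.35-fold higher in M plate (adjusted p = 0.00341) and 1.76-fold higher in P plate (adjusted p = 0.0227). The call in P plate was lost without P plate replicate 3 (adjusted p = 0.101) and without strips replicate 1, 2 or 3 (0.063, 0.0816 and 0.0632). It was also lost with upper-quartile factors (0.0592), library totals alone (0.0967) and a fit to the 6 compared libraries (0.0693).

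Sparcl1 was called in all 6 comparisons, although some of these calls did not hold when single libraries were left out. Its values (ENSMUSG00000029309, chromosome 5, 104079111 to 104113733, minus strand) were 1280, 1250 and 1240 CPM in M scaffold, 475, 374 and 530 in M plate, 161, 76.9 and 189 in P plate, and 2030, 2480 and 2130 in strips. No group overlapped another, and the order was strips, M scaffold, M plate and P plate. Sparcl1 was 1.77-fold lower in M scaffold than in strips (log2 -0.82 ± 0.28, adjusted p = 0.0307), 4.82-fold lower in M plate (-2.27 ± 0.29, adjusted p = 0.000134) and 15.6-fold lower in P plate (-3.96 ± 0.31, adjusted p = 3.56e-06). Against P plate, it was 8.81-fold higher in M scaffold (log2 3.14 ± 0.30, adjusted p = 5.33e-05) and 3.23-fold higher in M plate (1.69 ± 0.29, adjusted p = 0.00198). The call of M scaffold against strips was lost without M scaffold replicate 1, 2 or 3 (adjusted p = 0.0656, 0.0671 and 0.0731) and without strips replicate 2 or 3 (0.0816 and 0.055), and with limma-voom (0.0859).

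Markers of neurons moved with Sparcl1, and those of vascular cells in part. The 7 enteric neuron markers summed to 351 to 536 CPM in M scaffold, 116 to 221 in M plate, 28.1 to 68.9 in P plate and 1010 to 1360 in strips, the order of groups that Sparcl1 had, without overlap. The 6 enteric glia markers summed to 292 to 692 CPM in M scaffold, 167 to 211 in M plate, 20.6 to 36.8 in P plate and 157 to 198 in strips. The 6 pericyte markers summed to 950 to 1320 CPM in M scaffold, 519 to 691 CPM in M plate, 273 to 415 CPM in P plate and 1800 to 2080 CPM in strips, again in that order. In strips that sum rests largely on Rgs5, at 1270 ± 112 CPM there against 183 ± 98.3 CPM in M scaffold. Pdgfrb ran the other way, at 352 ± 42.5 CPM in M scaffold and 21.6 ± 3.86 CPM in strips. In M scaffold against strips the pericyte list had a median log2 fold change of 0.05, with 2 of 6 called higher and 2 lower. The 8 endothelium markers summed to 231 to 1600 CPM in M scaffold, 1770 to 2150 CPM in M plate, 17.3 to 42.2 CPM in P plate and 118 to 214 CPM in strips, so M plate was highest there. Chat, a neuron marker, had no counts in P plate, and no other marker of these 4 lists was without counts in any group. In M scaffold against P plate 7 of 7 neuron, 6 of 6 glia, 5 of 6 pericyte and 7 of 8 endothelium markers were called higher, where 15.1% of all genes were. In M plate against P plate these were 5, 6, 3 and 8, where 14.3% of all genes were. The part of these cells in the Sparcl1 values was not tested.

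Fibronectin had the largest rise over strips after Thbs1 in all 3 cultures. Fn1 (ENSMUSG00000026193, chromosome 1, 71585520 to 71653200, minus strand) had 5110, 3780 and 5820 CPM in M scaffold, 5730, 5800 and 6840 in M plate, 15500, 3870 and 12400 in P plate, and 442, 379 and 464 in strips. Every culture library lay above the strips, and P plate replicate 2 fell among the M medium libraries while replicates 1 and 3 lay above them. Fn1 was 11.4-fold higher in M scaffold than in strips (log2 3.52 ± 0.46, adjusted p = 0.000193), 14.3-fold higher in M plate (3.84 ± 0.46, adjusted p = 9.36e-05) and 24.7-fold higher in P plate (4.63 ± 0.48, adjusted p = 1.94e-05). Between cultures it was not called, with log2 values of -1.11 ± 0.42 in M scaffold against P plate (adjusted p = 0.0789) and -0.79 ± 0.42 in M plate against P plate (adjusted p = 0.193). Without P plate replicate 2 both were called, at -1.50 (adjusted p = 0.00199) and -1.19 (adjusted p = 0.00687), and DESeq2 called M scaffold against P plate (-1.11, adjusted p = 0.0264). With single libraries left out the values ran from -1.50 to -0.7 and from -1.19 to -0.4, and no other omission gave a call.

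Periostin, a collagen-associated protein that fibroblasts make under TGF-beta, was called in M scaffold against P plate and against strips. Postn (ENSMUSG00000027750, chromosome 3, 54361109 to 54391037, plus strand) had 949, 852 and 1270 CPM in M scaffold, 675, 536 and 677 in M plate, 512, 311 and 552 in P plate, and 690, 557 and 625 in strips. M scaffold lay above the other groups, and M plate overlapped the strips. Postn was 2.23-fold higher in M scaffold than in P plate (log2 1.16 ± 0.23, adjusted p = 0.00465) and 1.64-fold higher than in strips (0.71 ± 0.23, adjusted p = 0.0242). The first call was lost in a fit to the 6 compared libraries (adjusted p = 0.0564), and the second without M scaffold replicate 3 (adjusted p = 0.0864) or strips replicate 2 or 3 (0.0866 and 0.0664), and with upper-quartile factors (0.0553) or library totals alone (0.0878). Postn in P plate against strips was not called (-0.45 ± 0.23, adjusted p = 0.112), but was without P plate replicate 3 (-0.64, adjusted p = 0.0497), with upper-quartile factors (-0.62, adjusted p = 0.0365) and with library totals alone (-0.73, adjusted p = 0.0136).

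Versican, the large chondroitin sulphate proteoglycan that binds hyaluronan, had the largest SE of the set in all 6 comparisons. Vcan (ENSMUSG00000021614, chromosome 13, 89655312 to 89742509, minus strand) had 59.1, 25.8 and 96.6 CPM in M scaffold, 29.7, 24.1 and 44.5 in M plate, 151, 2.77 and 29.5 in P plate, and 38.7, 29.6 and 41.2 in strips. All groups overlapped, and the highest P plate library exceeded the lowest 54.5-fold. No comparison was called under any tool run, and in the main edgeR fit the smallest unadjusted p was 0.37. With the replicate block within the 6 compared libraries, M scaffold against M plate was 0.76 (adjusted p = 0.0955). The SE of 0.95 to 0.96 on the log2 scale leaves room for a difference of several fold that these libraries could not detect. The P plate library with 151 CPM was replicate 1, the one with the high macrophage and low mesothelium markers, and the part of those cells was not tested. Without it the log2 fold changes were 1.94 in M scaffold against P plate, 1.03 in M plate against P plate and -1.22 in P plate against strips, none called by edgeR (adjusted p = 0.105, 0.349 and 0.197).

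Per length, the set was made up differently in each setting. In TPM, which divides counts by merged exon length before scaling, the 10 genes summed to 14400 ± 794 in M scaffold (SD, n = 3), 14100 ± 1400 in M plate, 15700 ± 2470 in P plate and 8100 ± 260 in strips. Sparc held 59.6 ± 2.01% of the summed TPM in M scaffold, 64.2 ± 4.51% in M plate, 40.4 ± 11% in P plate and 50.3 ± 2.8% in strips. Sparcl1 came second in strips with 37.4 ± 3.75%, and held 11.1 ± 1.53% in M scaffold, 4.23 ± 0.643% in M plate and 1.06 ± 0.306% in P plate. By group mean Thbs1 and Fn1 followed Sparc in P plate, with 29.1 ± 3.73% and 19.8 ± 10.6%, against 0.779 ± 0.101% and 1.82 ± 0.189% in strips. In P plate replicate 1 Thbs1 and Fn1 held 31.1% and 30.2%, above Sparc at 27.8%. By TPM the lowest of the set was Vcan in M scaffold, M plate and strips, at 15.4, 8.65 and 10.1, and Tnxb in P plate, at 3.64.

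**Figure D3:**
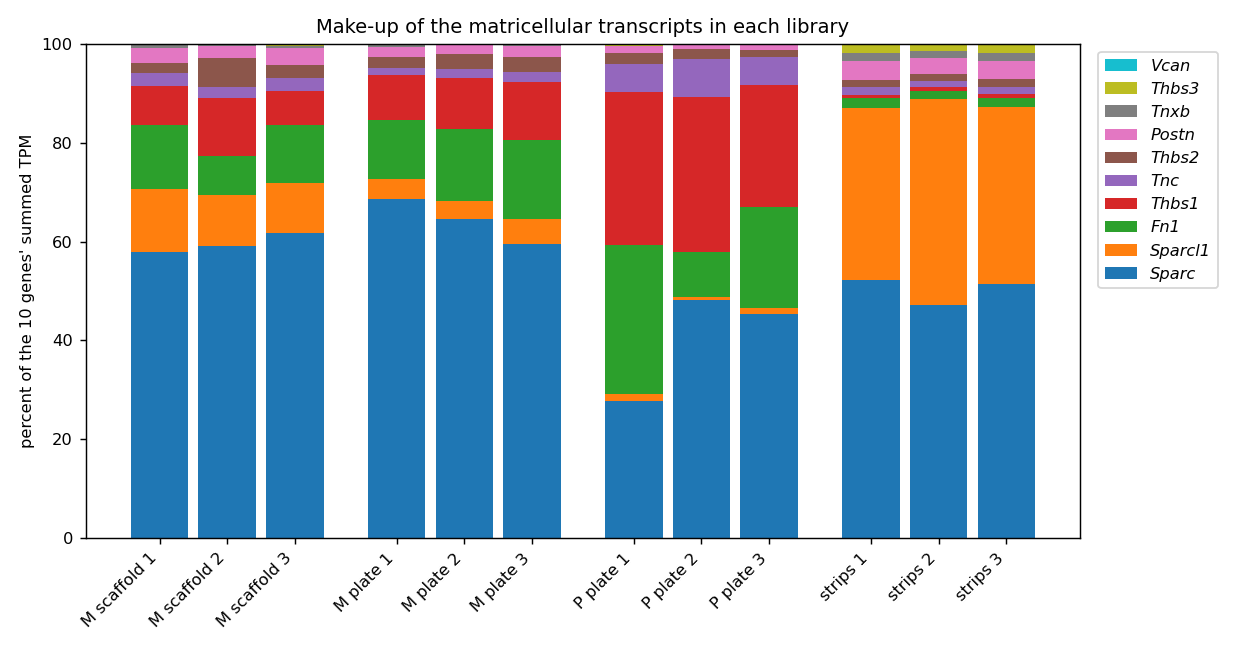
Share of each gene in the summed TPM of the 10 genes, 1 bar per library, in percent. Sparc fills 27.8% to 68.6% of every bar, Thbs1 fills 24.8% to 31.4% in P plate, and Sparcl1 fills 34.8% to 41.7% in strips.

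Ratios between relatives within a library do not depend on library scaling. All 4 ratios set P plate and strips apart from the other groups, and Sparc to Sparcl1 also set M scaffold apart from M plate. The TPM ratio of Tnc to Tnxb was 5.21, 6.24 and 7.47 in M scaffold, 3.55, 6.52 and 7.03 in M plate, 168, 276 and 489 in P plate, and 0.979, 0.946 and 0.859 in strips. Transcripts of the tenascins were thus about equal in strips and far apart in P plate. The ratio of Sparc to Sparcl1 was 4.54, 5.68 and 6.2 in M scaffold, 17.2, 17.2 and 12 in M plate, 22.2, 67.6 and 36.8 in P plate, and 1.51, 1.13 and 1.44 in strips, with no overlap between groups. The ratio of Thbs1 to Thbs2 was 2.01 to 4 in M scaffold, 3.38 to 3.94 in M plate, 13.3 to 17.6 in P plate and 0.475 to 0.664 in strips. Per length, Thbs1 exceeded Thbs2 in the 9 culture libraries, and Thbs2 exceeded Thbs1 in strips. The ratio of Thbs1 to Thbs3 was 23.7 to 225 in M scaffold, 64.9 to 115 in M plate, 319 to 739 in P plate and 0.413 to 0.63 in strips.

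**Figure D4:**
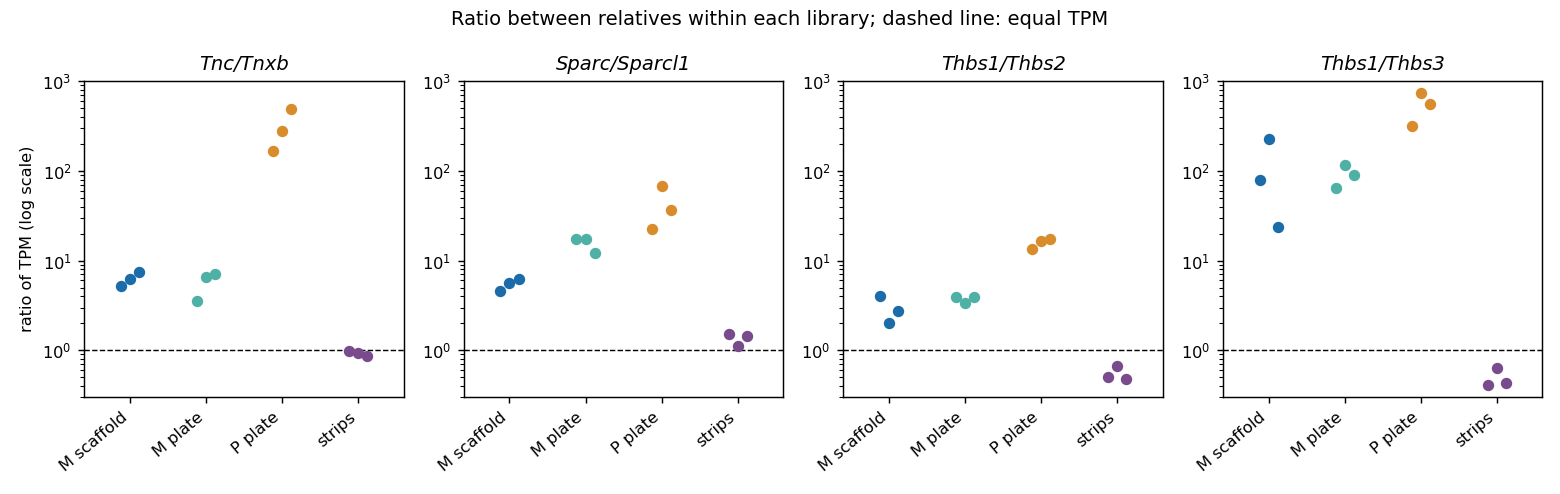
Ratio of TPM between related genes in each library on a log axis, for M scaffold, M plate, P plate and strips, with a dashed line at equal TPM. The Tnc to Tnxb ratio is 3.55 to 7.47 in both M medium groups, 168 to 489 in P plate and 0.859 to 0.979 in strips.

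M plate against P plate holds the surface constant and changes the medium. Of the 10 genes 2 were higher in M plate, Tnxb and Sparcl1, and 2 were lower, Tnc and Thbs1, while 6 were not called. Over all genes tested 24.9% were called, 14.3% higher and 10.6% lower. Libraries did not overlap for 4 of the 10 genes and for 41.9% of all genes. Tnc was 4.32-fold lower in M plate (log2 -2.11 ± 0.17, adjusted p = 3.62e-05). For the 4 genes the direction brought M plate nearer to the strips than P plate was. The media differ in serum, base, supplements and all 3 added factors, and what each did cannot be told apart. Cell type markers differed as well, with 8 of 8 endothelium, 6 of 6 enteric glia and 5 of 7 enteric neuron markers called higher in M plate. Of 8 fibroblast markers 4 were higher, of 9 smooth muscle markers 1 was higher and 3 were lower, and 0 of 7 macrophage markers were called. The part of these cells was not tested. Without P plate replicate 2, 5 genes were called, Fn1 being the fifth, and no other omission gave that Fn1 call.

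M scaffold against P plate, which changes medium and support together, gave 3 higher genes (Tnxb, Sparcl1 and Postn) and 2 lower ones (Tnc and Thbs1) of 10. Over all genes 24.7% were called, 15.1% higher and 9.61% lower. Libraries did not overlap for 5 of the 10 genes and for 34.0% of all genes. This comparison shares M scaffold or P plate with the others between cultures. Cell type markers differed here too, in part as given with Sparcl1. Of 8 fibroblast markers 7 were called higher and 0 lower (median log2 1.5). Of 9 smooth muscle markers 1 was higher, and of 7 macrophage markers 1 was lower. The part of all these cells was not tested.

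M scaffold against M plate holds the medium constant and changes the support. Sparcl1 alone of the 10 was called, 2.73-fold higher on the scaffold (log2 1.45 ± 0.28, adjusted p = 0.0305), where 3.18% of all genes were called and 1.53% were higher. That call did not pass without any single library of M scaffold (adjusted p = 0.0573, 0.0531 and 0.0647 without replicates 1, 2 and 3) or of M plate (0.0849, 0.143 and 0.0869), nor without strips replicate 1 or 3 (0.0507 and 0.0533), though the log2 fold change stayed between 1.33 and 1.56 over these. Tnc and Postn also lay higher in all 3 scaffold libraries than in any M plate library, at log2 0.61 ± 0.16 (adjusted p = 0.0651) and 0.70 ± 0.23 (adjusted p = 0.116), and so did not pass. Both were called by DESeq2 (adjusted p = 0.000856 and 0.0363), and Tnc also by limma-voom (0.0395) and without P plate replicate 1 (0.0273). Groups without overlap were found for 3 of the 10 genes and for 33.3% of all genes. In the same fit, without a block, 3 of 6 enteric glia markers were called higher on the scaffold (median log2 1.47), 1 of 7 enteric neuron markers (1.11) and 1 of 6 pericyte markers (0.81). Of the endothelium markers 1 of 8 was called lower (-1.04), where 1.64% of all genes were. The part of these cells was not tested.

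Libraries of M scaffold and M plate with the same replicate number deviated together from their group means (correlations of 0.29, 0.196 and 0.304 across genes, which are not independent replicates). With the replicate number as a block within these 6 libraries, 3 genes were called higher on the scaffold, where 10.5% of all genes were called and 4.81% were higher. They were Sparcl1 (log2 1.47, adjusted p = 0.0202), Tnc (0.62, adjusted p = 0.0342) and Postn (0.70, adjusted p = 0.0427).

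**Figure D5:**
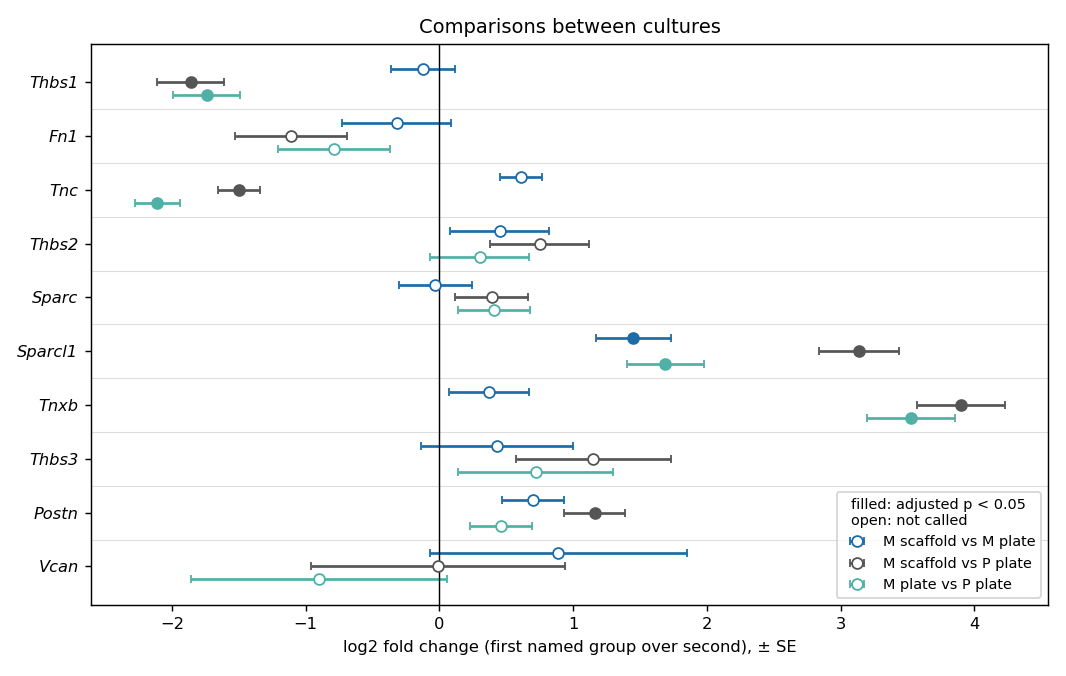
Log2 fold change of each gene in M scaffold over M plate, M scaffold over P plate and M plate over P plate, with its SE, filled where the adjusted p was under 0.05. Tnxb and Sparcl1 lie at 3.90 and 3.14 in M scaffold over P plate, and Thbs1 and Tnc at -1.86 and -1.50.

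Of 13 other genes of the same families 12 were tested. Against strips 7 were called lower in each culture and 1 higher in M plate, with medians of -2.04, -1.93 and -2.25. Over all genes in M scaffold, M plate and P plate, 24.5%, 26.5% and 30.5% were higher and 27.6%, 28.4% and 32.7% lower, with medians of -0.02, -0.01 and -0.03. Tnn, tenascin N, stood at 1.34 ± 0.308 CPM in M scaffold and 26.3 ± 2.77 CPM in strips (log2 -4.28 ± 0.67, adjusted p = 0.000524). Tnr, the tenascin of the nervous system, stood at 0.219 ± 0.0854 CPM in P plate and 23.1 ± 5.40 CPM in strips (-6.71 ± 0.44, adjusted p = 1.27e-06). The 7 enteric neuron markers summed to 28.1 to 68.9 CPM in P plate and 1010 to 1360 CPM in strips, with Chat listed at 0 counts in P plate, and their part in the Tnr values was not tested.

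Of 16 further matricellular and provisional matrix genes 12 were tested. Against strips 8 were higher and 2 lower in M scaffold, 8 and 1 in M plate, and 7 and 4 in P plate, with medians of 1.08, 2.18 and 2.21, beside the 24.5% to 30.5% higher and 27.6% to 32.7% lower of all genes. Ccn5, a CCN protein without the C-terminal domain of its relatives, stood at 20.6, 41.3 and 69.9 CPM in M scaffold, 210, 206 and 214 in M plate, 42.9, 43 and 50.9 in P plate, and 0.574, 0.5 and 0.556 in strips. It was lower on the scaffold than on the plate in M medium (log2 -2.25 ± 0.33, adjusted p = 0.0137), a call lost without M plate replicate 2 or 3 (0.0577 and 0.0504). Ccn2, a connective tissue growth factor gene, was lower in M scaffold than in P plate, at 130 ± 51.3 and 1710 ± 647 CPM (log2 -3.71 ± 0.37, adjusted p = 6.64e-05). Spp1, the osteopontin gene, stood at 8260, 768 and 1330 CPM in P plate and 6.73, 8.16 and 5.38 CPM in strips (log2 9.0 ± 1.2, adjusted p = 0.000102). Its highest library was again P plate replicate 1 with the high macrophage markers, and without it the log2 fold change was 7.25 (adjusted p = 2.7e-05). Tgfbi, a TGF-beta-induced adhesion protein gene, was lower in P plate than in strips, at 81.7 ± 16.3 and 426 ± 8.75 CPM (-2.38 ± 0.26, adjusted p = 3.03e-05).

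Among 16 receptor genes 10 were higher and 1 lower in M scaffold than in strips, 7 and 1 in M plate, and 11 and 2 in P plate, with medians of 1.33, 0.56 and 1.26, beside the 24.5% to 30.5% higher and 27.6% to 32.7% lower of all genes. Itgb5, an integrin subunit that pairs with alpha v, stood at 286 ± 25.2 CPM in M plate and 66.0 ± 7.26 CPM in strips (log2 2.11 ± 0.14, adjusted p = 5.09e-06). Itgb3, another beta partner of alpha v, was lower, at 15.0 ± 6.14 CPM in M scaffold, 16.8 ± 3.28 CPM in M plate, 24.3 ± 10.5 CPM in P plate and 222 ± 23.7 CPM in strips. Its log2 fold changes against strips were -3.88 ± 0.41, -3.72 ± 0.41 and -3.19 ± 0.40 (adjusted p = 6.58e-05, 5.57e-05 and 6.67e-05). In M plate against P plate 1 receptor was higher and 3 were lower, beside 14.3% and 10.6% of all genes. Itga5, the alpha subunit of the main fibronectin receptor, stood at 204, 185 and 240 CPM in M plate, against 953, 344 and 1040 CPM in P plate (log2 -1.90 ± 0.37, adjusted p = 0.00443). As for Fn1, P plate replicate 2 was its lowest P plate library. The Itga5 call was lost with the replicate block within the 6 compared libraries (-1.75, adjusted p = 0.0654). Itga9, an integrin subunit that binds tenascin C, was higher in M plate, at 150 ± 24.2 CPM against 41.9 ± 15.2 CPM in P plate (1.84 ± 0.38, adjusted p = 0.0065).

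Of 13 genes for hyaluronan synthases, link proteins and proteases that cut versican, 7 were higher and 2 lower in M scaffold than in strips, the same numbers in M plate, and 6 higher and 4 lower in P plate, beside the 24.5% to 30.5% higher and 27.6% to 32.7% lower of all genes. The medians were 1.34, 1.67 and 0.30. Adamts4, which cuts aggrecan and versican, stood at 53.6 ± 9.30 CPM in M scaffold and 3.32 ± 0.661 CPM in strips (log2 4.01 ± 0.29, adjusted p = 1.11e-05). Adamts15, a relative that also cuts versican, stood at 78.0 ± 2.70 CPM in M plate, against 3.40 ± 1.96 CPM in P plate (4.51 ± 0.41, adjusted p = 6.08e-05). Has2, the hyaluronan synthase of most mesenchymal cells, ran the other way, at 2.47 ± 0.434 CPM in M plate, against 14.7 ± 9.5 CPM in P plate (-2.58 ± 0.47, adjusted p = 0.0032). Without P plate replicate 1 this was -1.99 (adjusted p = 0.00475). The call was lost with the replicate block within the 6 compared libraries (-2.36, adjusted p = 0.102).

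The genes whose pattern over the 12 libraries was most like that of a member were found by the root mean square difference of log2 CPM centred on each gene's mean, in a search of 11995 genes whose mean reached 5 CPM. For Sparc these were Gstm2 and Fkbp7, at differences of 0.135 and 0.189, where Sparc itself spread by 0.545. For Tnxb they were Tmod2 and Rgs7bp (0.35 and 0.39, spread 1.92) and for Sparcl1 Slitrk6 and Epha7 (0.342 and 0.371, spread 1.57). Postn lay nearest to Hic1 and Oaf (0.183 and 0.222), Thbs2 to Epas1 and Cmtm3 (0.285 and 0.315), Fn1 to Pstpip1 and Trib3 (0.455 and 0.492), Thbs1 to Gdf6 and Osmr (0.494 and 0.559) and Thbs3 to Ptch1 and Tet1 (0.489 and 0.516). Vcan had no close match, with Col5a3 nearest at 0.778. Within the set, Sparc and Thbs2 were each other's nearest member at 0.577, as were Tnxb and Sparcl1 at 0.807 and Fn1 and Thbs1 at 0.861. The points share libraries and groups, and the distances are a description.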

How the data were processed

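RNA was measured in 12 libraries, 3 in each of 4 groups taken from the sample titles. The deposited values are raw counts per Ensembl gene. Per the submitters' processing notes STAR 2.6.0 and the builds GRCm38 and mm10 were used. The sources used here name no counting program, annotation or strand setting, nor how the technical replicates named in the series text became 1 column per sample. Library sizes omit the 5 summary entries. Reads outside features made up 4.2% to 7.87%, and ambiguous reads 3.12% to 3.87%, of the reads so listed together with gene counts. Of 52550 genes, 52403 had a symbol and exon lengths in GENCODE M21. Counts were filtered with filterByExpr, scaled by TMM and fitted with edgeR 4.0.16 (R 4.3.3) over all libraries with group as the only term, leaving 8 residual degrees of freedom. The 6 comparisons used quasi-likelihood F tests, Benjamini-Hochberg adjusted over the 17700 genes of a comparison, and the SE comes from the F statistic. The procedure was run on simulated counts for M plate against P plate only, with fewer changed genes than were called in these data. TPM came from raw counts and merged exon length. Alternatives were DESeq2 1.42.0, limma-voom (limma 3.58.1), other scalings, no filter, the compared groups alone, the replicate block and leaving out each library. Same-numbered libraries of M scaffold and M plate correlated in their deviations at 0.196 to 0.304. Their numbers were therefore treated as pairs in the block fit of that comparison, from the data and not from the labels. The main fit of that comparison had no block. In the other comparisons the correlations ran from -0.103 to 0.127. All members are named. From each related list at most the 2 largest called rises and 2 largest called falls of a comparison with at least 5 CPM were eligible, and a part of these is named. The members and lists were chosen with earlier results of these data known. The labels call the replicates biologically independent without naming animals or cultures, so p values measure the spread between these libraries. The genes most like Tnc in pattern are not reported here.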

Additional observations from a re-analysis of the deposited data

How the results depend on the processing

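Of the counts of members called, those of M plate against P plate, M plate against strips, M scaffold against strips and P plate against strips stayed within 1.5 times their value under all alternatives run. In M scaffold against M plate the 1 called gene became 3 with DESeq2, 2 with limma-voom and 3 with the replicate block within the 6 compared libraries, and 0 to 2 when single libraries were left out. The replicate block changed no other member's call there. In the other comparisons not every same-numbered pair had a correlation over 0.1, so numbers were not treated as pairs. There the block within the 6 compared libraries gave 3 called genes in M scaffold against P plate in place of 5, and left 3 of 4 in M plate against P plate and 7 of 8 in P plate against strips. Signs turned for values that were not called. Postn in M plate against strips was 0.01, and -0.01 with DESeq2 and with RLE factors, -0.15 with upper-quartile factors, -0.21 with library totals alone and -0.09 to 0.10 with single libraries left out. In M scaffold against M plate, leaving out single libraries gave ranges of -0.11 to 0.10 for Sparc, -0.41 to 0.05 for Thbs1, -0.20 to 0.78 for Thbs2 and -0.69 to 0.85 for Thbs3. Vcan in M plate against P plate was -0.90, and 0.42 with limma-voom, 0.45 with the replicate block within the 6 libraries and -1.46 to 1.03 with single libraries left out. Vcan in M scaffold against P plate was -0.01, and 1.13 with limma-voom, 0.05 with upper-quartile factors, 0.09 with library totals alone, 0.04 with no filter, 0.46 with the replicate block over the full 12 libraries, 1.27 when that block was limited to 6 and -0.57 to 1.94 with single libraries left out. Vcan in P plate against strips was 0.74, and -0.61 with limma-voom, -0.60 with the block within the 6 libraries and -1.22 to 1.30 with single libraries left out, and in M plate against strips the range was -0.43 to 0.01. The causes were not tested. Library totals alone shifted the median of all genes by -0.24, -0.22 and -0.27 in M scaffold, M plate and P plate against strips, and upper-quartile factors by -0.14, -0.16 and -0.17. With library totals alone 2919 genes were higher and 6551 lower in M scaffold against strips, in place of 4344 and 4884, 3327 and 6492 in M plate, in place of 4687 and 5025, and 3669 and 7304 in P plate, in place of 5390 and 5785. Over all genes, M scaffold against M plate gave 271 higher and 291 lower, against 1146 and 873 with DESeq2, 459 and 545 with limma-voom, 455 and 613 with the compared groups alone and 787 and 931 with the block within them. Lower genes against P plate were 1868 for M plate and 1701 for M scaffold, and 1187 and 1036 with no filter, 1116 and 372 with the compared groups alone, and 358 and 104 with the block, with 2532 and 2674 higher genes becoming 942 and 811 with the block. Higher genes in M scaffold against P plate numbered 1419 with the compared groups alone, those in P plate against strips 3374 with the block in place of 5390, and lower genes in M scaffold against M plate 169 with the block over the full 12 libraries. Upper-quartile factors gave 3706 higher and 6067 lower genes in M plate against strips. Groups of 3 libraries and uneven P plate replicates limit what can be detected.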
